A study of Mus musculus with 2 samples.

Results

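Nitric oxide (NO) is made by NO synthases from arginine and acts mainly through soluble guanylyl cyclase (sGC), a heterodimer of an α and a β1 subunit that turns GTP into cGMP. cGMP then acts through protein kinase G and is broken down by phosphodiesterases, and in vessel walls the pathway is known for relaxing mural cells next to the endothelium. The genes described here are 9 of the 32285 in the feature table: the cyclase subunits *Gucy1a1* (α1), *Gucy1a2* (α2) and *Gucy1b1* (β1), the kinase *Prkg1*, the phosphodiesterases *Pde5a* and *Pde3a*, the kinase substrate *Vasp*, and the synthases *Nos2* (inducible) and *Nos3* (endothelial). They were chosen by name as the steps of this pathway, and all 9 had UMIs (molecules counted once by a barcode) in cells that passed the quality filter.

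The data are droplet 3′ single-cell RNA counts of Lewis lung carcinoma (LLC) tumors, a mouse lung cancer line grown under the skin of C57BL/6 mice. One library came from *Gucy1b1* flox/flox mice (sGC Ctr) and one from Cspg4-CreERT2::Gucy1b1 flox/flox mice (sGC ∆PC, whose label spells the floxed gene Gucyc1b1). Per the study, mice were given tamoxifen (5 doses) when 4 weeks old and LLC cells when 8 weeks old, the tumors were taken 2 weeks after that, and each library pooled 3 tumors. CreERT2 was knocked into *Cspg4*, the gene of the pericyte proteoglycan NG2, the control genotype names no Cre, and the injected cancer cells carried no floxed allele. With 1 library per genotype, genotype and library cannot be told apart, no test compares them, and the 95% intervals given here (in brackets) reflect counting error alone.

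Cells were sorted into 10 classes by marker genes, none of which is one of the 9 genes. Of 34718 cells kept, 26389 (76.0%) fell into a class, 85.1% of those in sGC Ctr and 71.1% of those in sGC ∆PC. Cells that reached no gate were 10.7% and 20.6% of the kept cells. The sGC Ctr library gave 38 pericytes, 58 endothelial cells (ECs), 114 fibroblasts, 2104 macrophages, 356 monocytes, 244 granulocytes and 7330 cancer cells. The sGC ∆PC library gave 39, 59, 206, 2799, 322, 281 and 12083 cells of these classes, and the 3 others (dendritic cells, T cells and cells with both macrophage and monocyte markers) held 28 to 122 cells a library. All 11 pericyte markers had UMIs in the pericytes of both libraries, led by *Rgs5* at 4582 and 4311 CPM (a gene's UMIs per 1000000 UMIs of its class), and all 11 EC markers in the ECs. The libraries differed in depth, with median cells of 35776.5 and 8685 UMIs, and 131 barcode sequences occurred in both (0.873% and 0.511% of their barcodes).

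*Gucy1a1* and *Gucy1b1* are neighbors on the minus strand of chromosome 3 (mm10), *Gucy1b1* at chr3:82032006-82074689 and *Gucy1a1* at chr3:82092427-82145789, with 17737 bases between them. *Gucy1a2* lies at chr9:3532778-3894736 on the plus strand. The 3 subunits were found in the same class of cells, so the sequences before their starts are shown, in RefSeq's GRCm38.p6 (the mm10 build), 5′ to 3′ on the gene's strand and without bases that the annotation places in an exon. Capitals mark TGGGAA, the core of sites for the Notch factor RBPJ, and GGGCGG, a GC box, on either strand. The first line ends 1 base before RefSeq's start of *Gucy1b1* (chr3:82074712-82074961), and the second before the downstream of its *Gucy1a1* starts (chr3:82145074-82145262). The third lies before the upstream *Gucy1a1* start (chr3:82145790-82145900) and stops short of it, at the gene bound given above. The last ends before RefSeq's start of *Gucy1a2* (chr9:3532099-3532348). RefSeq's starts of *Gucy1b1* and *Gucy1a2* and its upstream start of *Gucy1a1* differ from the gene bounds given above, which are from GENCODE.
Gucy1b1: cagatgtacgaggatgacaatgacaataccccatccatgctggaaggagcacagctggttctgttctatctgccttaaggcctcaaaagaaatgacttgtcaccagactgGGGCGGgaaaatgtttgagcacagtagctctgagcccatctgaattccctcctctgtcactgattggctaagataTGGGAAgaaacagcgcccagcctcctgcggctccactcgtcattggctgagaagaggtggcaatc
Gucy1a1 downstream start: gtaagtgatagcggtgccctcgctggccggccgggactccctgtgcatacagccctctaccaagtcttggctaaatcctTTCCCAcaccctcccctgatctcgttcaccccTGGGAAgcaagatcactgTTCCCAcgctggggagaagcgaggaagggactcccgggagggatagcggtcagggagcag
Gucy1a1 upstream start: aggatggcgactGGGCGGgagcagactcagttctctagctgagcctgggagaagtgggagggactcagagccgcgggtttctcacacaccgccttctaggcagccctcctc
Gucy1a2: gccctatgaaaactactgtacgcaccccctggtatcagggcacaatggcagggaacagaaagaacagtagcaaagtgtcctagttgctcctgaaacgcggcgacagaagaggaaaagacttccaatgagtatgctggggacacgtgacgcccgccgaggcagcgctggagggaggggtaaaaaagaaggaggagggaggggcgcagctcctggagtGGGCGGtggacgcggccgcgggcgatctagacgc
TGGGAA stood 3 times before the downstream *Gucy1a1* start and 1 time before *Gucy1b1*, and 21.6% of 32851 promoter windows of 250 bases hold it. GGGCGG stood 1 time before *Gucy1b1*, the upstream *Gucy1a1* start and *Gucy1a2*, and 32.7% of windows hold it. Neither a TATA box (TATAAA) nor a CArG box, the site of serum response factor, was found in these windows, against 12.4% and 1.47% of all windows. Such matches are letters in a window and not evidence of binding. In all, 6 of the 9 members matched the RefSeq table, and promoters of *Nos2*, *Nos3* and *Pde3a* are not used here.

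By level, the cyclase was a transcript of the pericyte class. Smooth-muscle genes set no gate, so this class was not separated from smooth-muscle cells. In sGC Ctr it held *Acta2* at 3461 CPM and *Myh11* at 302 CPM. In the sGC Ctr library *Gucy1a1* had 120 UMIs in pericytes (254 CPM, 210 to 303), 75% of its 160 UMIs in all kept cells, although pericytes were 0.311% of the cells. *Gucy1b1* had 59 UMIs there (125 CPM, 95 to 161), 76.6% of its 77. *Gucy1a2*, the less common α subunit, had 15 UMIs (31.7 CPM, 17.7 to 52.3), and 1 further UMI in a cell that also held cancer-cell RNA. Pericytes therefore stood first for all 3 subunits, and no interval of another class reached theirs. Fibroblasts had 6 *Gucy1a1* UMIs in 2 cells (2.33 CPM, 0.86 to 5.07) and 3 *Gucy1b1* UMIs in 1 cell (1.17 CPM, 0.24 to 3.41). These intervals overlapped those of ECs and of small classes without a UMI, so no second place was read. In sGC ∆PC pericytes held 43.5% of the *Gucy1a1* and 32.5% of the *Gucy1b1* UMIs, and cancer cells 30.4% and 25%.

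ECs, which line the same vessels, held no *Gucy1a1* or *Gucy1a2* UMI in either library, where 3 UMIs would have been 1.98 and 2.81 CPM, and 1 *Gucy1b1* UMI in sGC Ctr. The 2104 sGC Ctr macrophages had 3 *Gucy1a1* and 2 *Gucy1b1* UMIs, and the 7330 cancer cells 20 and 8. In sGC ∆PC macrophages had 6 and 8 UMIs of these genes, and cancer cells 35 and 10. T cells, dendritic cells and granulocytes had none of either subunit in both libraries. There 3 UMIs would have been 13.3, 9.24 and 5.55 CPM in sGC Ctr, and 11.1, 12.1 and 4.72 CPM in sGC ∆PC.

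**Figure D1:**
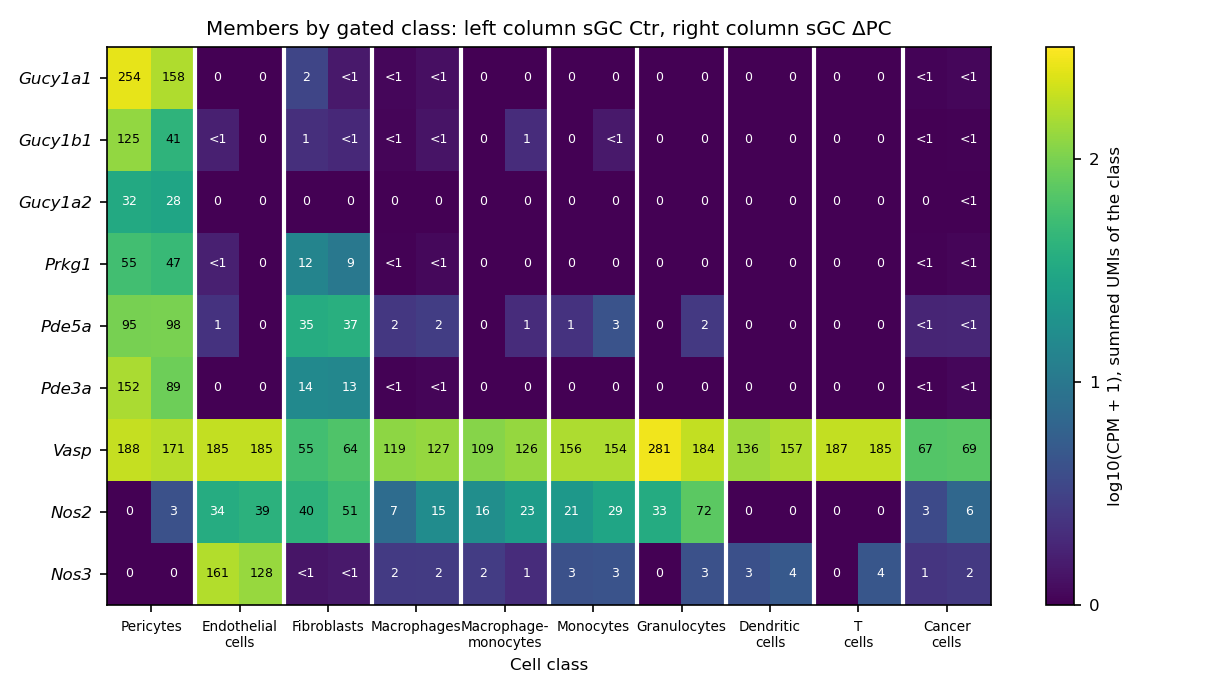
CPM of the 9 genes (rows) in 10 gated classes (columns, sGC Ctr left and sGC ∆PC right of each pair), with color as log10(CPM + 1) and the CPM printed in each cell. The 3 cyclase subunits are between 28.5 and 254 CPM in pericytes and at most 2.33 CPM elsewhere, *Nos3* stands in ECs, and *Vasp* is in every class.

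*Gucy1b1* was lower in the pericytes of the sGC ∆PC library. It had 13 UMIs there (41.1 CPM, 21.9 to 70.3) against 59 in sGC Ctr (125 CPM), a log2 ratio of -1.60 (-2.59 to -0.72), or 3.03-fold lower. Only 5 of the 2384 genes with at least 50 UMIs over both libraries in pericytes lay further down. Of these genes 1.68% were at least 2-fold lower and 2.89% lay at least 2-fold away in either direction, and *Gucy1b1*, which passed the limit of 50 on its sGC Ctr UMIs alone, was the single member among the 5 that reached it to do so. Which exons lie between the loxP sites is not given in the sources used here, and 3′ reads see the end of a transcript, so these UMIs count transcripts of the locus and do not check the deletion.

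*Gucy1a1*, the partner whose gene was left intact, had 50 UMIs in sGC ∆PC pericytes (158 CPM, 117 to 208) against 120 (254 CPM), a log2 ratio of -0.68 (-1.19 to -0.19). *Gucy1a2* had 9 UMIs (28.5 CPM) against 15 (31.7 CPM), a log2 ratio of -0.16 (-1.53 to 1.13). *Gucy1b1* and *Gucy1a1* were thus lower in these sums, and the interval of *Gucy1a2* held both directions. With cells thinned to 2000 UMIs the log2 ratios were -1.34 (-4.61 to 0.99) for *Gucy1b1* and -0.21 (-1.36 to 0.87) for *Gucy1a1*, and under 5% mitochondrial UMIs they were -1.02 (-2.26 to 0.06) and -1.10 (-1.88 to -0.39). Pericytes of sGC Ctr had 0.492 *Gucy1b1* UMIs per *Gucy1a1* UMI and those of sGC ∆PC had 0.260, and the log2 ratio of these ratios, -0.92, had an interval from -2.03 to 0.12, so a fall of *Gucy1b1* beyond that of *Gucy1a1* was not detectable at this depth.

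Cell by cell, *Gucy1b1* was found in 25 of 38 sGC Ctr pericytes and in 8 of 39 sGC ∆PC pericytes. In sGC Ctr 13 pericytes had none, 9 had 1 UMI, 6 had 2 and 10 had 3 or more, with at most 5. In sGC ∆PC 31 had none, 5 had 1, 2 had 2 and 1 cell had 4. *Gucy1a1* was found in 32 and 18 pericytes, with at most 11 and 7 UMIs. Among pericytes with *Gucy1a1*, 21 of 32 (65.6%, 46.8 to 81.4%) also had *Gucy1b1* in sGC Ctr, and 5 of 18 (27.8%, 9.69 to 53.5%) in sGC ∆PC.

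Depth differed between these cells. Every sGC Ctr pericyte had at least 4500 UMIs, and 22 of the 39 in sGC ∆PC did. Those 22 had a median of 11185 UMIs, near the 11018.5 of sGC Ctr, and 8 of them (36.4%) had *Gucy1b1*, against 65.8% in sGC Ctr. With each cell thinned to 2000 UMIs and 15 sGC ∆PC cells left out as too shallow, the shares were 21.1% (9.55 to 37.3%) and 8.33% (1.03 to 27.0%), with overlapping intervals. For *Gucy1a1* they were 42.1% (26.3 to 59.2%) and 37.5% (18.8 to 59.4%), against 84.2% and 46.2% without thinning. At the same thinning 0 of 55 and 0 of 51 ECs had a *Gucy1b1* UMI, which allows shares of cells with a UMI at that depth of up to 5.45% and 5.88% (3 cells of the total).

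**Figure D2:**
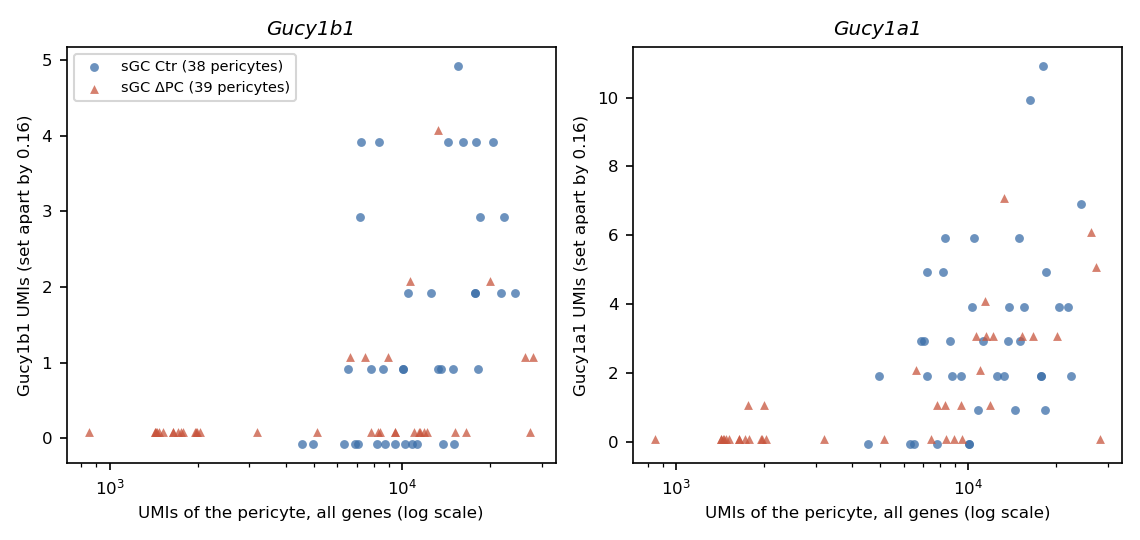
Each point is 1 pericyte, with its total UMIs on a log axis and its *Gucy1b1* (left) or *Gucy1a1* (right) UMIs, circles for sGC Ctr and triangles for sGC ∆PC, set slightly apart vertically. *Gucy1b1* is at 0 in 13 of 38 circles and 31 of 39 triangles, and the cells under 4500 UMIs are all triangles.

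Some smooth-muscle genes were lower beside the subunits. *Myh11*, the smooth-muscle myosin, had 143 UMIs (302 CPM) in sGC Ctr pericytes and 33 (104 CPM) in sGC ∆PC pericytes, and *Tagln* 1089 and 693 CPM, whereas *Acta2* was at 3461 and 3157 CPM, *Lmod1* at 97.3 and 101 CPM and *Actg2* at 95.1 and 94.9 CPM, and *Cnn1* had 9 and 3 UMIs. The 6 smooth-muscle markers summed to 5064 and 4159 CPM, with all 6 found in both libraries, while the 11 pericyte markers summed to 11167 and 10203 CPM. In pericytes without a *Myh11* UMI (18 and 27 cells) *Gucy1b1* was at 74.9 CPM in sGC Ctr and 28.7 CPM in sGC ∆PC, a log2 ratio of -1.39 (-3.45 to 0.28). That split was chosen after the values were seen. Markers of other cells moved both ways in pericytes, with the 11 EC markers at 323 and 244 CPM, the 8 fibroblast markers at 3150 and 3742 CPM, the 8 macrophage markers at 97.3 and 177 CPM, the 6 monocyte markers at 188 and 376 CPM and the 4 cancer-cell markers at 95.1 and 164 CPM. The part of the smooth-muscle genes and of these other cells in the difference was not tested.

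The Cre is read from *Cspg4*, so its level in each class is given beside *Gucy1b1*. Tamoxifen was given at 4 weeks of age and LLC cells at 8 weeks, so *Cspg4* UMIs of these tumors do not show where Cre acted. *Cspg4* had 78 UMIs in sGC Ctr pericytes (165 CPM, 130 to 206) and 24 in sGC ∆PC pericytes (75.9 CPM, 48.6 to 113), a log2 ratio of -1.12 (-1.84 to -0.44). Macrophages came second, with 1402 UMIs (53.8 CPM, 51.0 to 56.6) in 505 of 2104 cells in sGC Ctr and 722 UMIs (32.2 CPM, 29.9 to 34.6) in 326 of 2799 cells in sGC ∆PC, a log2 ratio of -0.74 (-0.87 to -0.61). Macrophages held 66.4% and 58.2% of all *Cspg4* UMIs. The macrophages with *Cspg4* had no *Gucy1b1* UMI in either library, 2 *Gucy1a1* UMIs each, and pericyte markers at 6.48 and 4.15 CPM against 8.36 and 13.3 CPM in those without. In cancer cells *Cspg4* was at 0.692 and 0.803 CPM, a log2 ratio of 0.21 (-0.03 to 0.46). Only the sGC ∆PC genotype names CreERT2, which was knocked into *Cspg4*, so this locus itself differed between the mice. The part of the knock-in in these ratios was not tested. Where Cre acted was not tested here either. The paper reports that, in lineage tracing, all labeled tumor cells carried the pericyte marker Desmin.

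Downstream of cGMP, pericytes again stood first for the kinase and both phosphodiesterases, followed by fibroblasts. *Prkg1*, which encodes cGMP-dependent protein kinase I, had 26 UMIs in sGC Ctr pericytes (55.0 CPM, 35.9 to 80.5) and 15 in sGC ∆PC pericytes (47.4 CPM, 26.6 to 78.2), and fibroblasts had 12.4 and 9.05 CPM. *Pde5a*, the cGMP-specific phosphodiesterase that sildenafil blocks, had 95.1 CPM (69.4 to 127) and 98 CPM (66.6 to 139) in pericytes, and 34.6 and 36.7 CPM in fibroblasts. *Pde3a*, a phosphodiesterase that cGMP inhibits, had 152 CPM (119 to 192) and 88.6 CPM (58.8 to 128) in pericytes, and 14.4 and 13.3 CPM in fibroblasts. ECs had at most 2 UMIs of any of these 3 genes in a library.

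Between libraries *Pde5a* was level in pericytes, with a log2 ratio of 0.04 (-0.67 to 0.74), and *Prkg1* gave -0.21 (-1.23 to 0.76). *Pde3a* was lower, with 28 against 72 UMIs and a log2 ratio of -0.78 (-1.47 to -0.13), and 82 of the 2384 genes lay further down. *Pde3a* passed the UMI limit for tested genes on its sGC Ctr UMIs alone. Its interval held 0 in pericytes of at least 4500 UMIs, at -0.64 (-1.33 to 0.01). In fibroblasts *Pde5a*, *Pde3a* and *Prkg1* gave log2 ratios of 0.09 (-0.37 to 0.54), -0.11 (-0.87 to 0.64) and -0.46 (-1.36 to 0.41), and none of the 5 members tested there, against 2.26% of 7818 genes, lay 2-fold away.

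*Vasp*, an actin-binding protein that protein kinases A and G phosphorylate, was in every class. Its level ran from 54.8 CPM in fibroblasts to 281 CPM (238 to 330) in granulocytes in sGC Ctr, and from 64.3 to 185 CPM in sGC ∆PC. Pericytes had 188 and 171 CPM and ECs 185 CPM in both, and these neighbors did not differ beyond their intervals. Granulocytes had 152 against 117 UMIs, a log2 ratio of -0.61 (-0.97 to -0.25), while in ECs the ratio was 0.00 (-0.27 to 0.27). Transcript counts do not show phosphorylation of the protein.

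*Nos3* marked ECs. It had 245 UMIs in sGC Ctr ECs (161 CPM, 142 to 183) and 137 in sGC ∆PC ECs (128 CPM, 108 to 152), a log2 ratio of -0.33 (-0.64 to -0.02), at which 850 of 5964 genes lay further down. Of the EC genes tested 1.56% lay at least 2-fold away, and none of the 3 members tested (*Nos3*, *Nos2* and *Vasp*) did. *Nos3* was found in 48 of 58 and 31 of 59 ECs, with at most 30 and 12 UMIs. Thinned to 2000 UMIs the shares were 27.3% (16.1 to 41.0%) and 19.6% (9.82 to 33.1%). Without the EC that held most *Nos3* in each library the log2 ratio was -0.26 (-0.59 to 0.07).

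No *Nos3* UMI was found in the pericytes of either library, where 3 UMIs would have been 6.34 and 9.49 CPM. Cancer cells held more *Nos3* UMIs in all, 589 and 560 (61.8% and 66.4% of the gene's UMIs), at 1.41 CPM (1.30 to 1.53) and 1.61 CPM (1.48 to 1.75). These were spread thinly, 499 of 541 and 487 of 520 cells with the gene having 1 UMI. Macrophages had 1.65 and 1.74 CPM and monocytes 3.15 and 3.41 CPM, values that did not differ beyond their intervals between libraries. EC markers, as a group of 11, were at 41.2 and 46.3 CPM in cancer cells and 15.5 and 20.7 CPM in macrophages, and their part in these low *Nos3* levels was not tested.

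**Figure D3:**
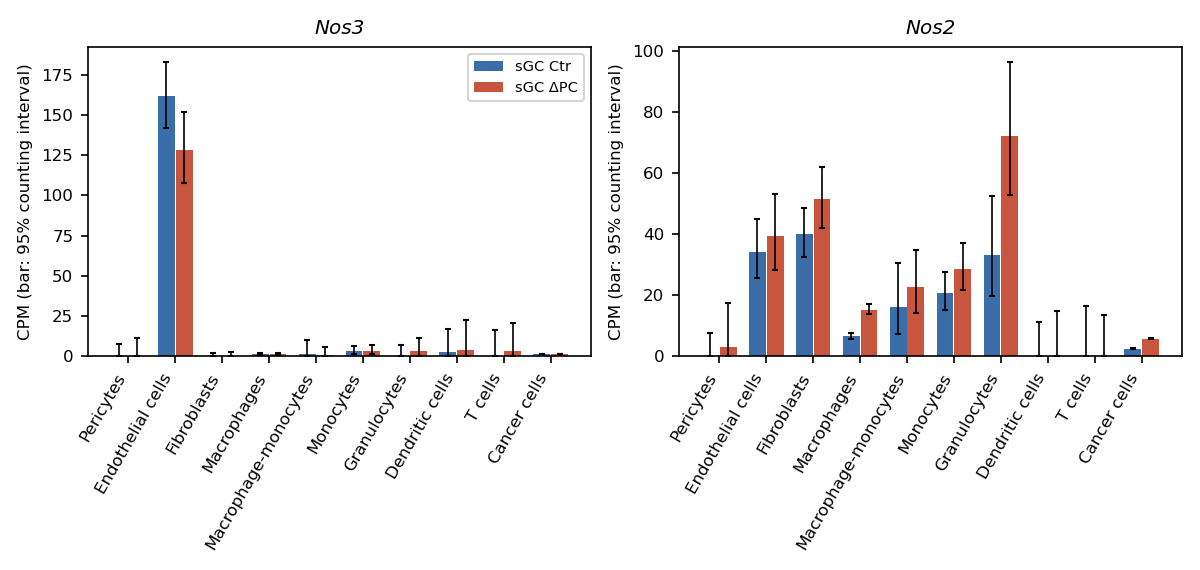
CPM of *Nos3* (left) and *Nos2* (right) by class, blue for sGC Ctr and red for sGC ∆PC, with exact 95% Poisson intervals as bars. *Nos3* rises above 100 CPM in ECs alone, and *Nos2* is spread over granulocytes, fibroblasts, ECs and myeloid cells.

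*Nos2*, which myeloid cells induce on activation, was found in more classes. In sGC Ctr fibroblasts had 40.0 CPM (32.7 to 48.5), ECs 34.3 (25.6 to 44.9), granulocytes 33.3 (19.7 to 52.7), monocytes 20.7 (15.2 to 27.6) and macrophages 6.63 (5.68 to 7.70), so that the first 3 could not be ordered. In sGC ∆PC granulocytes had 72.4 CPM (53.0 to 96.5), fibroblasts 51.5 (42.2 to 62.1), ECs 39.3 (28.4 to 53.2), monocytes 28.7 (21.9 to 37.1) and macrophages 15.4 (13.8 to 17.1). T cells and dendritic cells had no *Nos2* UMI, and pericytes had 0 and 1. In these classes 3 UMIs would have been 13.3, 9.24 and 6.34 CPM in sGC Ctr. In sGC ∆PC they would have been 11.1, 12.1 and 9.49 CPM. The sGC Ctr limits lay above or near the 6.63 CPM of macrophages, so these classes could not be set apart from that level.

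Macrophages had 173 *Nos2* UMIs in 66 cells in sGC Ctr and 345 in 129 cells in sGC ∆PC, a log2 ratio of 1.21 (0.95 to 1.48). Of 11747 genes tested there 1.12% were at least 2-fold higher and 1.43% lay 2-fold away in either direction, and *Nos2* was the member among 4 that did. Granulocytes had 18 UMIs in 15 cells and 46 in 22 cells, a log2 ratio of 1.12 (0.31 to 1.99) that was 0.53 (-0.43 to 1.55) with cells thinned to 2000 UMIs and 0.72 (0.22 to 1.24) with Leiden clusters, beside 1.36% of genes at least 2-fold higher and 3.39% in either direction. Monocytes gave 0.47 (-0.11 to 1.06), where neither of the 2 members tested lay 2-fold away, against 0.887% of genes. At equal depth, 20 of 2085 macrophages (0.959%, 0.587 to 1.48%) had *Nos2* in sGC Ctr and 42 of 1982 (2.12%, 1.53 to 2.85%) in sGC ∆PC. This left out 19 sGC Ctr and 817 sGC ∆PC macrophages as too shallow. For granulocytes the shares were 8.82% and 7.69% at 2000 UMIs, with 108 and 112 cells left out, 2.46% and 4.33% at 1000 UMIs, and 6.15% and 7.83% without thinning, so no order was read from them. Markers of other classes moved in macrophages too, the 6 granulocyte markers from 85.4 to 127 CPM and the 8 fibroblast markers from 403 to 608 CPM, while the 8 macrophage markers stood at 13397 and 11054 CPM, and their part was not tested.

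Among fibroblasts and macrophages *Nos2* sat in few cells. It was found in 21 of 58 sGC Ctr ECs and 19 of 59 sGC ∆PC ECs, with at most 8 and 6 UMIs in a cell. Thinned to 2000 UMIs the EC shares were 12.7% (5.27 to 24.5%) and 7.84% (2.18 to 18.9%). In sGC Ctr fibroblasts 16 of 114 cells had *Nos2*, 3 of them held 50% or more of its UMIs and 1 had 30. In sGC ∆PC fibroblasts 16 of 206 had it and 1 cell held 59 of the 108. Without that top cell in each library the fibroblast log2 ratio turned from 0.36 (-0.04 to 0.77) to -0.28 (-0.83 to 0.27), so no direction is given for fibroblasts. In macrophages the top cells held 21 and 41 UMIs, and without them the log2 ratio was 1.22 (0.93 to 1.51).

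Cancer cells held most *Nos2* UMIs, 1089 in 271 of 7330 cells in sGC Ctr and 2037 in 722 of 12083 in sGC ∆PC, with up to 83 and 76 in a cell. As CPM this was 2.61 (2.46 to 2.77) and 5.86 (5.61 to 6.12), a log2 ratio of 1.17 (1.06 to 1.28). Markers of other cells moved the same way in cancer cells: the 8 macrophage markers, all found in both libraries, stood at 113 and 222 CPM and the 6 granulocyte markers at 28.8 and 62.5 CPM, and their part was not tested. *Pde3a* (14 and 39 UMIs) and *Gucy1a1* (20 and 35 UMIs) also lay at least 2-fold higher there, at levels near 0.1 CPM or below, beside pericyte markers at 8.64 and 13.7 CPM. These were 3 of 6 members tested, against 4.09% of 15363 genes. The log2 ratios were 1.74 (0.83 to 2.74) for *Pde3a* and 1.07 (0.24 to 1.94) for *Gucy1a1*. Both genes passed the UMI limit for tested genes by few UMIs. Of the *Gucy1a1* UMIs, 1 cell held 6 of 20 in sGC Ctr and 1 cell held 7 of 35 in sGC ∆PC. The 4.09% includes genes of any higher count, so it is not a background matched to *Pde3a* and *Gucy1a1* in UMIs.

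**Figure D4:**
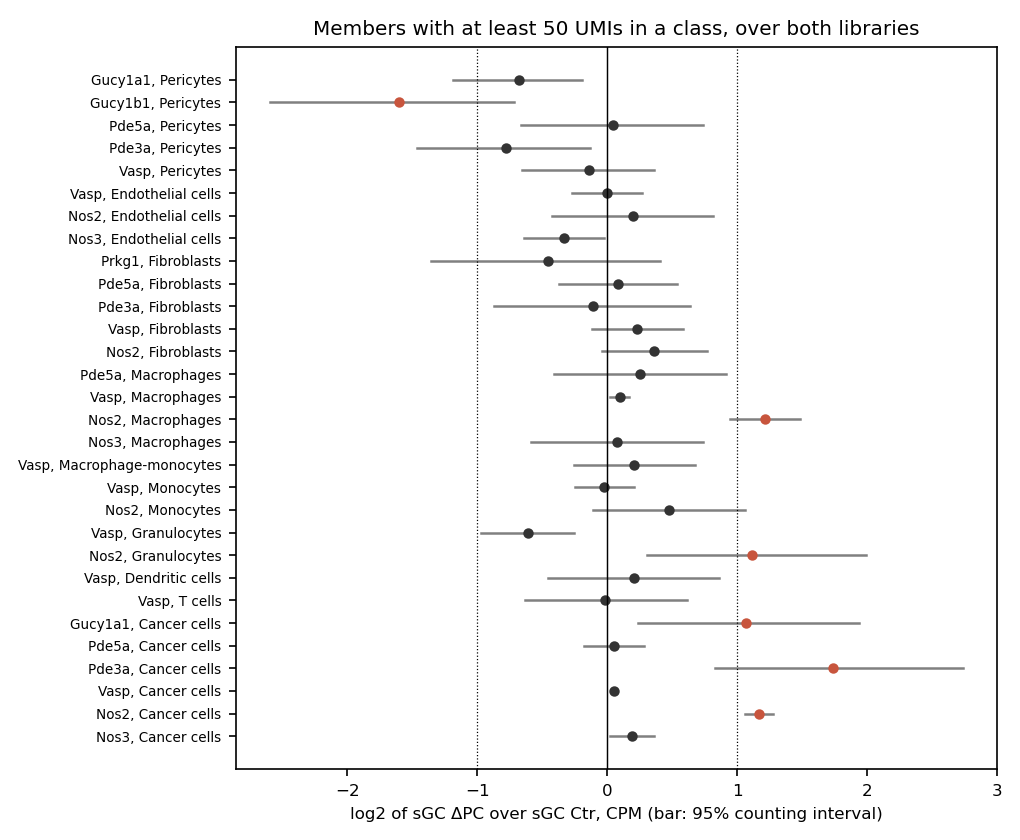
Log2 ratio of CPM, sGC ∆PC over sGC Ctr, for each of the 9 genes in each class where it had at least 50 UMIs over both libraries, with exact 95% counting intervals and dotted lines at 2-fold. *Gucy1b1* in pericytes, at -1.60, is the 1 point past the lower line, and *Nos2* in macrophages, granulocytes and cancer cells lies past the upper line with *Gucy1a1* and *Pde3a* in cancer cells.

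Arginase competes with NO synthases for arginine. Macrophages with *Nos2* had more *Arg1* (arginase 1) than those without, 1858 against 891 CPM in sGC Ctr and 2043 against 1344 CPM in sGC ∆PC. *Slc7a2*, an arginine transporter, was at 72.6 against 10.1 CPM and 110 against 44.0 CPM in the same cells. The sGC Ctr groups had median depths of 11834.5 and 11446 UMIs, but in sGC ∆PC they were 11072 and 5118.5, so a deeper cell was more likely to be counted as having *Nos2*.

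The wider pathway was a list of 50 genes for NO synthesis and its cofactors, NO removal, other cyclases and natriuretic peptides, other phosphodiesterases, and the kinase's targets, of which 49 had UMIs in the 10 classes. In pericytes 13 reached 50 UMIs, with a median log2 ratio of 0.07 against -0.06 over all genes, 1 at least 2-fold lower and 1 at least 2-fold higher, beside 2.89% of all genes either way. The lower was *Ddah2*, of the family that clears NO synthase inhibitors, at 171 and 72.7 CPM (log2 ratio -1.24, -1.97 to -0.55). With 81 and 23 UMIs, *Ddah2* passed the limit of 50 on its sGC Ctr UMIs alone. The higher was *Ass1*, which remakes arginine from citrulline, with 17 UMIs in 14 cells and 33 UMIs in 8 cells, at 35.9 and 104 CPM (1.54, 0.65 to 2.47). *Nostrin*, which binds endothelial NO synthase, gave -0.62 (-1.37 to 0.10), and *Trpc6*, a cation channel, -0.50 (-1.43 to 0.37). *Pde1a*, a calmodulin-driven phosphodiesterase, gave 0.63 (-0.14 to 1.40), and *Ppp1r12a*, the myosin phosphatase subunit, 0.29 (-0.17 to 0.74). Intervals of these 4 held 0.

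Pericytes also led for *Cygb* (cytoglobin, a globin that removes NO), at 755 and 569 CPM, with fibroblasts at 143 and 76.7 CPM. In fibroblasts 26 genes of the list were tested, none at least 2-fold lower and 1 higher, *Rgs2*, a brake on G-protein signals that kinase G can activate, at 16.3 and 82.9 CPM (log2 ratio 2.35, 1.85 to 2.87), beside 2.26% of all genes either way. With 42 and 174 UMIs, *Rgs2* passed the UMI limit for tested genes on its sGC ∆PC UMIs alone. *Slc7a2* gave 0.92 (0.17 to 1.69) and *Ass1* 0.65 (0.42 to 0.88). *Cygb* gave -0.89 (-1.17 to -0.62) and *Pde1a* -0.87 (-1.78 to -0.01). In the same fibroblasts the 6 smooth-muscle markers stood at 299 and 128 CPM, the 8 macrophage markers at 158 and 258 CPM, and the median depth was 21561.5 and 2983 UMIs, and their part in these values was not tested.

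In ECs 18 genes of the list were tested, with none at least 2-fold lower and 1 higher, *Abcc4*, a cyclic nucleotide exporter, with 20 and 32 UMIs (log2 ratio 1.19, 0.34 to 2.07), beside 1.56% of all genes either way. *Ddah2* gave -0.55 (-0.85 to -0.27), *Pts*, an enzyme of cofactor synthesis, -0.49 (-1.43 to 0.39), and *Nostrin* -0.39 (-0.82 to 0.02). *Slc7a1*, an arginine transporter, gave 0.41 (-0.23 to 1.05) and *Cav1*, the caveolin that holds endothelial NO synthase inactive, 0.31 (0.19 to 0.44), at 749 and 929 CPM. *Pde2a*, a phosphodiesterase that cGMP stimulates, stood at 170 and 183 CPM in ECs, and *Npr1*, the receptor cyclase for atrial natriuretic peptide, at 36.9 and 30.9 CPM.

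In macrophages 32 genes of the list were tested, 1 at least 2-fold lower and 2 higher, beside 1.12% of all genes higher and 1.43% either way. *Slc7a2* was at 12.3 and 48.8 CPM (log2 ratio 1.99, 1.81 to 2.17), *Ddah1* had 16 and 36 UMIs (1.39, 0.50 to 2.34), and *Prkg2*, which encodes kinase G type II, had 8.86 and 15.2 CPM (0.78, 0.54 to 1.03). Cancer cells had 122 and 130 CPM of *Prkg2*. The 4 cancer-cell markers stood at 128 and 146 CPM in macrophages against 1793 and 1713 CPM in cancer cells. The part of cancer-cell RNA in the low macrophage level of *Prkg2* was not tested. *Mrvi1*, a kinase G substrate, had 55 and 23 UMIs (-1.04, -1.81 to -0.31). It was the lower gene, and it passed the UMI limit for tested genes on its sGC Ctr UMIs alone. *Npr1* and *Pde2a* gave -0.72 (-1.50 to 0.02) and -0.60 (-1.03 to -0.18). *Arg1* stood at 925 and 1395 CPM in these cells (0.59, 0.57 to 0.62).

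**Figure D5:**
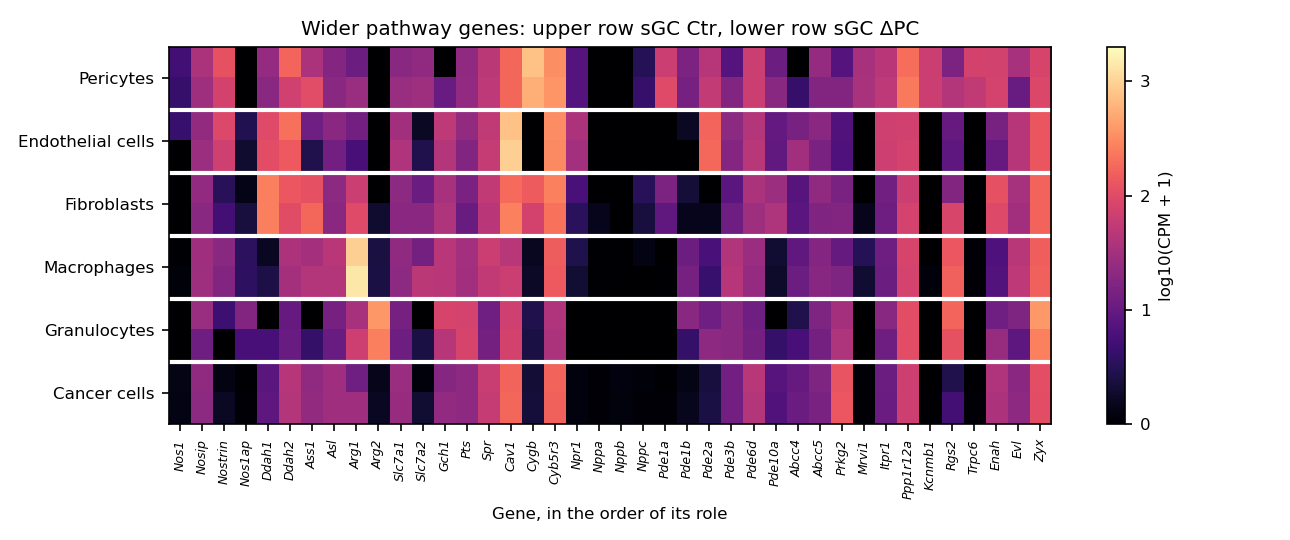
Levels of wider pathway genes (columns, 1 not shown) with at least 50 UMIs in one of 6 classes (rows), as log10(CPM + 1), with sGC Ctr above sGC ∆PC in each class. *Cygb* is brightest in pericytes, *Pde2a* in ECs, *Arg1* in macrophages, *Arg2* in granulocytes and *Prkg2* in cancer cells.

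Across 20 profiles (10 classes in both libraries) the gene most like *Gucy1b1* in log2(CPM + 1), among 14964 genes with at least 100 UMIs and outside the marker lists, was *Daam2* (r = 0.984), then *Gucy1a1* (0.981), *Atp1b2* (0.979), *Ccdc68* (0.976) and *Trpc6* (0.972). For *Nos3* the nearest were *Prnd* (0.934), *Stap2*, *Gm14207*, *Nts* and *Dll4* (0.922), and for *Nos2* *Rgcc* (0.860), *Tbc1d2*, *Ero1l*, *Tnfrsf23* and *Slc2a1* (0.819). Profiles of 1 library share its depth and free RNA, and *Gucy1b1* and its neighbors rest on the pericyte profiles.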

How the data were processed

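Single-cell RNA was measured in 1 library per genotype. UMI counts per gene and barcode were used as deposited by the authors, whose processing notes name Cell Ranger 6.1.1 and mm10. Members and gene lists were chosen with earlier results of these data known.

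A barcode was kept if mitochondrial genes took less than 10% of its UMIs and its log UMIs and log genes lay inside 3 median absolute deviations: 12220 of 15007 and 22498 of 25631. The libraries held 487859656 and 436352742 UMIs. A class needed 3 of its markers and a summed marker level of 800 to 16000 CPM, depending on the class, with cancer-cell markers (*Krt18*, *Krt8*, *Rhox5*, *Hmga2*) under 400 CPM or at most 1 UMI. Cancer cells needed 600 CPM and no other gate. Gate levels were set on markers alone. Cells in several gates were left out and no doublet caller was run. NK, B and mast cells (33 in all) were too few to describe.

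UMIs were summed per class and library and scaled to CPM. Intervals are exact Poisson (levels), conditional binomial (ratios) and Clopper-Pearson (shares). Genes with at least 50 UMIs in a class gave the background, with 3 UMIs in place of a 0. The text names all 9 members, *Cspg4*, the 3 list genes farthest each way in a class (1 is not reported here), the 5 nearest profiles, and, chosen after their values were seen, *Cygb*, *Pde2a*, *Npr1*, *Arg1*, *Arg2* and *Prkg2*. Positions are from GENCODE vM21 (mm10); the annotation behind the counts may differ. Alternatives were other gates, filters, thinning, cell weights and Leiden clusters; pericytes of at least 4500 UMIs, those without a *Myh11* UMI and leaving out the cell with most UMIs were added after seeing the data. Python 3.11.15, numpy 2.4.6, scipy 1.17.1 and scanpy 1.11.5 were used, and ratios and thinning were tested on simulated data.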

Additional observations from a re-analysis of the deposited data

How the results depend on the processing

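Of 303 log2 ratios recomputed for 30 pairs of gene and class, 278 stayed inside the reported interval. *Gucy1b1* in pericytes ran from -2.16 (each cell with equal weight) to -1.02 (under 5% mitochondrial UMIs, where the interval, -2.26 to 0.06, held 0). The *Gucy1b1* interval also held 0 after thinning to 2000 UMIs and in pericytes without a *Myh11* UMI. *Gucy1a1* there ran from -1.15 to -0.21. *Nos2* in macrophages ran from 1.01 to 1.37. In granulocytes it was 0.53 (-0.43 to 1.55) after thinning to 2000 UMIs and 0.72 with Leiden clusters, under the 2-fold line in both. In cancer cells *Nos2* moved to 1.29 with gate levels doubled, 1.44 under 5% mitochondrial UMIs, 1.28 with Leiden clusters, 1.52 after thinning and 1.33 with equal cell weights. *Nos3* in ECs was -0.86 with equal cell weights, and its interval held 0 with gate levels doubled, no filter, under 5% mitochondrial UMIs and thinning. Leiden clusters gave no class of ECs apart from cancer cells, so they gave no *Nos3* value. They gave 38 pericytes in sGC Ctr and 25 in sGC ∆PC, against 38 and 39 by the gates. *Vasp* in macrophages turned from 0.10 to -0.0226 with equal cell weights. In fibroblasts *Nos2* was -1.91 after thinning and -0.83 with equal cell weights, against 0.36. *Gucy1b1* in sGC Ctr pericytes was 74.9 CPM without *Myh11* UMIs. The share of genes 2-fold away was 7.91% (pericytes) and 2.86% (macrophages) from 20 UMIs, and 1.56% and 0.796% from 100. No paired analysis was possible because each genotype has 1 library.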

Other observations

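Outside the NO arm, cancer cells held a different cGMP kinase. *Prkg2*, which encodes kinase G type II, had 51118 UMIs (122 CPM) in the cancer cells of sGC Ctr and 45149 UMIs (130 CPM) in those of sGC ∆PC, with a log2 ratio of 0.09 (0.07 to 0.10), against 12 and 26 UMIs of *Prkg1*. In fibroblasts *Prkg2* had 14.0 and 16.2 CPM, beside cancer-cell markers at 104 and 144 CPM there. The natriuretic peptide genes were near 0 in cancer cells, with 39 and 26 UMIs of *Nppa*, 99 and 69 of *Nppb* and 59 and 42 of *Nppc*. *Nos1*, the neuronal synthase, had 160 and 110 UMIs there. Of 40 list genes tested in cancer cells none was at least 2-fold lower in sGC ∆PC and 4 were higher, beside 4.09% of all genes either way, *Slc7a2* (0.177 and 1.01 CPM), *Arg1* (11.3 and 29.2 CPM), *Nostrin* (0.283 and 0.694 CPM) and *Rgs2* (1.85 and 4.39 CPM), beside macrophage markers at 113 and 222 CPM there, whose part was not tested. *Mrvi1*, at 40 and 26 UMIs, was the list gene farthest down (-0.36, -1.13 to 0.39).

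Granulocytes were the class of *Arg2* (arginase 2), at 383 and 258 CPM, a log2 ratio of -0.57 (-0.87 to -0.27), while *Gch1*, the first enzyme of cofactor synthesis, gave -0.89 (-1.62 to -0.17) and *Arg1* 1.02 (0.20 to 1.90) with 18 and 43 UMIs. *Rgs2* gave -0.55 (-1.01 to -0.09), *Cav1* 0.13 (-0.51 to 0.78) and *Pts* 0.07 (-0.54 to 0.70). The 6 granulocyte markers, which set the gate, stood at 87120 and 64357 CPM in the same cells, and their part was not tested.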
